A study of Mus musculus with 8 samples.

Results

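The 10 genes described here encode the NF-κB transcription factor subunits (Rela, Rel, Relb, Nfkb1 and Nfkb2) and the best known proteins that restrain them or are induced with them (Nfkbia, Nfkbib, Nfkbie, Nfkbiz and Tnfaip3). They were taken by gene symbol from the 54532 genes of a bulk RNA-seq count table. All 10 were among the 12911 genes that passed the filter on low counts. The table held bone marrow-derived macrophages from wild-type mice (WT, n = 4 libraries) and from Gsdmd-/- mice (n = 4), which lack gasdermin D, the protein that forms membrane pores in pyroptosis. No treatment was given to either group. Marrow cells were cultured for 6 days with macrophage colony-stimulating factor (M-CSF). The study's methods give female C57BL/6J mice aged 6 to 8 weeks as the source of these cells. They do not give these traits for the Gsdmd-/- mice separately. The Gsdmd-/- colony was a gift from another laboratory and the WT mice were purchased, so genotype and mouse source cannot be told apart. Whether the 4 libraries of a group came from separate mice is not given in the sources used here, and p-values measure the spread between these libraries, which may be technical.

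NF-κB proteins bind DNA as dimers. In the classical pathway, RelA and c-Rel pair mostly with p50, which is cut from the Nfkb1 product p105, and are held in the cytoplasm by the IκB proteins until the IKK kinase complex marks the IκB proteins for destruction. In the alternative pathway, NIK and IKKα drive the processing of the Nfkb2 product p100 to p52, which pairs with RelB. Several inhibitor genes are themselves NF-κB targets in macrophages, and so form negative feedback loops. Transcript levels do not show whether a subunit is in the nucleus.

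Promoter windows from RefSeq were searched for the κB consensus, the DNA element that NF-κB dimers bind, which opens with a run of G and closes with a pair of C. Windows of 300 bases, with 250 before the start site and 50 from it onward (build GRCm38.p6), were at hand for Nfkb2, Rel, Rela, Nfkbia, Nfkbib, Nfkbie and Tnfaip3. These 7 genes had 10 windows, 3 of them for Nfkb2 and 2 for Tnfaip3. A match on either strand lay in 7 of the 10 windows, which belong to Nfkb2 (all 3), Rel, Nfkbia, Nfkbie and Tnfaip3 (1 of 2), and in 8.46% of all 32851 windows. The later Nfkb2 windows overlap and have 1 match in common. A match is a description of letters, not evidence of binding. Below is 1 window each, the first listed in RefSeq's table, of Nfkb2, Nfkbie, Tnfaip3 and Nfkbia, read 5′ to 3′ on the strand of the gene. All 4 hold a match, whereas the windows of Rela and Nfkbib, not printed, hold none. Capitals mark the bases of κB matches, and overlapping matches were joined.
Nfkb2 promoter, chr19:46304487-46304786, plus strand: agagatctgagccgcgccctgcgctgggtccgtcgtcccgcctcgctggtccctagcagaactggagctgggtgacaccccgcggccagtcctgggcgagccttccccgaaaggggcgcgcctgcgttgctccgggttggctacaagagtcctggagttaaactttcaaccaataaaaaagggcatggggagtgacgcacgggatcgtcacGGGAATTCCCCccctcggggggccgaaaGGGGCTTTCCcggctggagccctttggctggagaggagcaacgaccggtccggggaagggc
Nfkbie promoter, chr17:45555450-45555749, plus strand: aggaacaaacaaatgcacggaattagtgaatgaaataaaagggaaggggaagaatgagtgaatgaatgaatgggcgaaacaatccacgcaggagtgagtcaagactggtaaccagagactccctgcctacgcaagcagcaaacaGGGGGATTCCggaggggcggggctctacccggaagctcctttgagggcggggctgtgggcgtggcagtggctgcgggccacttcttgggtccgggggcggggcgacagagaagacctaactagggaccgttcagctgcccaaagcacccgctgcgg
Tnfaip3 promoter, chr10:19015361-19015660, minus strand: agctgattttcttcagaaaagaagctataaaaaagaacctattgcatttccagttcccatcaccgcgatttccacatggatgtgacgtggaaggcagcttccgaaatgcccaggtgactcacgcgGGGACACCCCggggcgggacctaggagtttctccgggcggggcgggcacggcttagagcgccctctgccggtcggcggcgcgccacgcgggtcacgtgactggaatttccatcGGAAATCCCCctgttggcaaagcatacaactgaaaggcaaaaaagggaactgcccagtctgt
Nfkbia promoter, chr12:55492598-55492897, minus strand: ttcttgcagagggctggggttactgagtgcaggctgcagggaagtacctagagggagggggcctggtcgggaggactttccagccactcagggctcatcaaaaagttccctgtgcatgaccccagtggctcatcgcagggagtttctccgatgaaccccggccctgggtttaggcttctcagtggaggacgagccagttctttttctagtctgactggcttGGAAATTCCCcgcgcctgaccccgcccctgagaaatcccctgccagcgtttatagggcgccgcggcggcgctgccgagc
In the printed Nfkb2 window a match that reads the same on both strands began at position -39 from the start site, and another began at -11. The printed Tnfaip3 window held matches at -125 and -12, the Nfkbia window at -29 and the Nfkbie window at -106.

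Sequencing depth was similar in all libraries, with 14935114 to 16794810 counts. Gsdmd itself (ENSMUSG00000022575) had 75.3 ± 14.1 CPM (counts scaled to library size, mean ± SD, n = 4) in WT and 16.2 ± 1.56 in Gsdmd-/-, a log2 fold change of -2.22 (edgeR's quasi-likelihood test, adjusted p = 4.67e-05). All 10 listed macrophage markers, such as Lyz2, Csf1r and Adgre1, were expressed. Their sum, mostly Lyz2, was 17010 to 24890 CPM in WT and 20770 to 24910 CPM in Gsdmd-/-. Adgre1 was lower in Gsdmd-/- without overlap, as were 4.12% of tested genes (log2 fold change -0.24, adjusted p = 0.31, edgeR). Fcgr1 was 7.09 and 6.66 CPM in WT 2 and WT 3, against 36.2 and 40.7 CPM in WT 1 and WT 4. Mertk went the other way, at 249.6 and 212 CPM against 141 and 101.3 CPM. WT 2 and WT 3 stood apart from the other 6 libraries on the first principal component of all tested genes (43.6% of the variance), with scores of 45.4 and 38.8 against -25.9 to -7.19. In these WT libraries the summed dendritic cell markers, led by Clec9a, were 70.4 and 69.8 CPM, against 26.7 to 41.0 CPM elsewhere. Their summed mast cell and basophil markers, led by Kit, were 16.5 and 17.2 CPM, against 54.6 to 81.4 CPM elsewhere. Their stromal and endothelial markers, led by Kdr, were 32.1 and 30.2 CPM against 50.4 to 82.5 CPM. These sums were mostly Kit and mostly Kdr, so they describe single genes rather than a cell type. The stromal marker Pdgfra went the other way, at 2.08 and 1.59 CPM in WT 2 and WT 3 against 0.183 to 0.730 CPM elsewhere. At the study's cutoff described below for the members, 3 marker genes were also lower in Gsdmd-/-, namely the dendritic markers Clec9a (log2 fold change -0.95) and Batf3 (-0.72) and the endothelial marker Cdh5 (-0.51), with adjusted p of 0.304, 0.232 and 0.402 (edgeR). Summed neutrophil markers were 5.36 to 7.94 CPM in WT and 6.93 to 7.69 in Gsdmd-/-, with Ly6g and Retnlg at 0, and lymphoid markers were 1.83 to 2.99 and 0.825 to 1.599 CPM, with Ncr1 at 0. Siglech, Mcpt4, Cma1 and Tek were also at 0. In bulk RNA, fewer cells of a type cannot be told apart from less RNA per cell, and the part of these marker shifts in the results that follow was not tested.

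At the study's cutoff (unadjusted p under 0.05 with an absolute log2 fold change no smaller than 0.5), 3 of the 10 members differed between the genotypes. Nfkbie and Tnfaip3 were lower in Gsdmd-/- macrophages, and 3.28% of all tested genes were lower at this cutoff. Nfkbiz was higher, against 1.54% of all tested genes. None of the 10 had an adjusted p under 0.05 in edgeR's quasi-likelihood test, a threshold that 0.349% of the tested genes reached. An unadjusted p under 0.05 was found for 4 members and for 12% of the tested genes, and DESeq2 gave an adjusted p under 0.05 for 1 member, Nfkb2, and for 2.26% of the tested genes. The log2 fold change was below 0 for 8 members and above 0 for 2, with a median of -0.16, while the median over all tested genes was -0.01. The 4 values of each group did not overlap for Nfkb2 and Tnfaip3 (lower; 4.12% of tested genes) and Nfkbiz (higher; 3.48%).

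**Figure D1:**
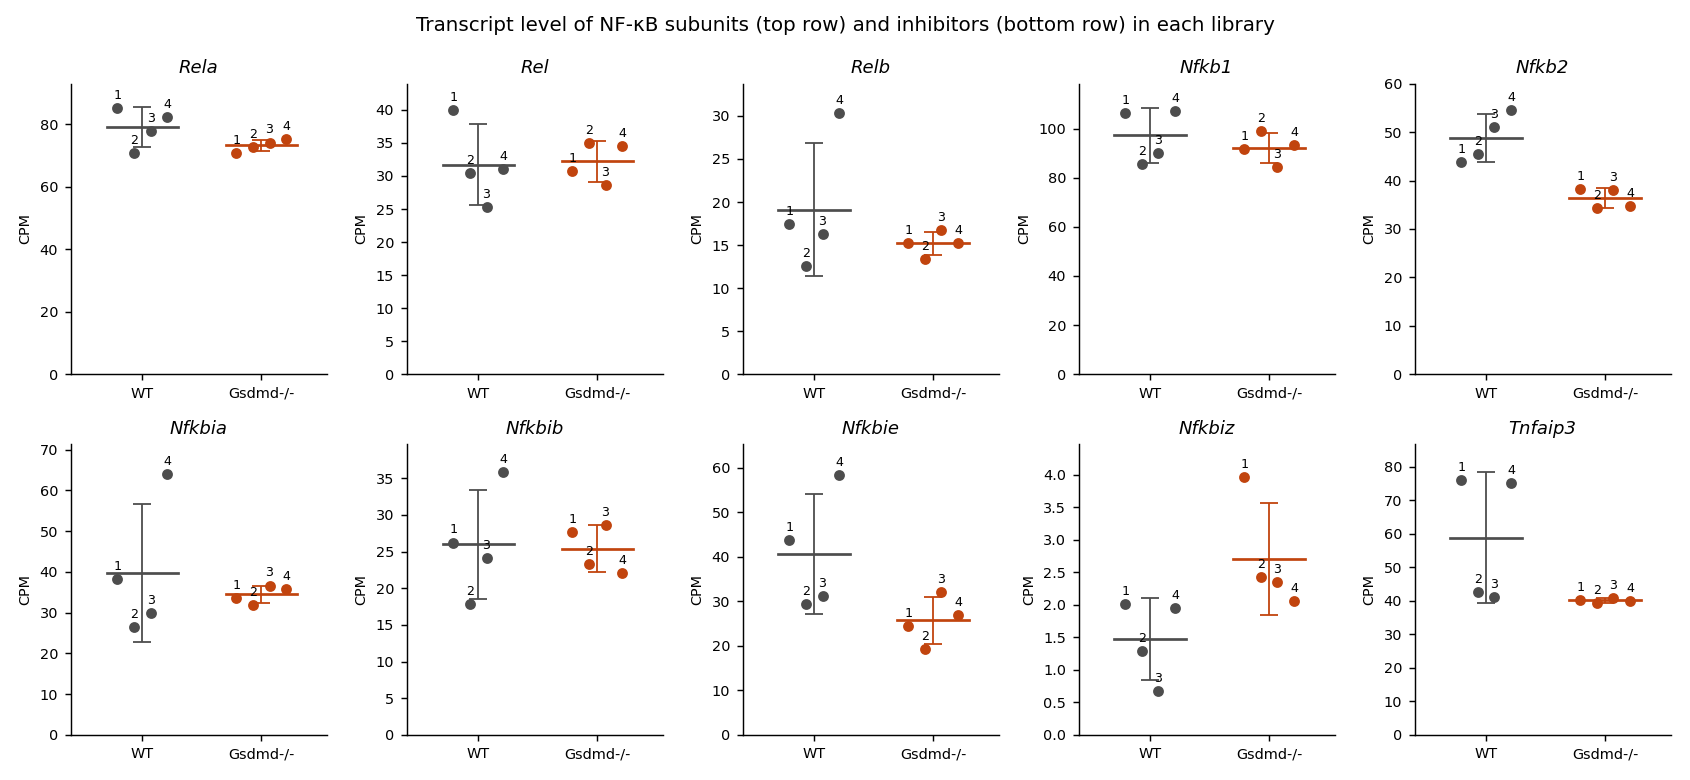
Transcript level (CPM, y axis from 0) of the 5 NF-κB subunits (top row) and 5 inhibitors (bottom row) in each WT (grey) and Gsdmd-/- (orange) library, with the library number beside each point, the mean as a horizontal line and the SD as an error bar. Nfkb2 is lower in all 4 Gsdmd-/- libraries than in any WT library, and Tnfaip3 lies near 40 CPM in the Gsdmd-/- libraries and in WT 2 and WT 3 but near 75 CPM in WT 1 and WT 4.

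Among the subunits, Nfkb2 (ENSMUSG00000025225, GRCm38 chromosome 19 from 46304320 to 46312385), which encodes p100, the precursor of p52, showed the clearest separation. Its level was 43.8, 45.5, 51.1 and 54.6 CPM in WT 1 to WT 4 and 38.3, 34.4, 38.0 and 34.8 CPM in Gsdmd-/- 1 to 4. Every Gsdmd-/- library was thus below every WT library, including both WT libraries that stood apart. The mean was 48.8 ± 4.98 CPM in WT and 36.4 ± 2.05 CPM in Gsdmd-/- (SD, n = 4 each), or 74.6% of WT. The log2 fold change was -0.42 (SE 0.0944, 95% interval -0.63 to -0.21, adjusted p = 0.115 by edgeR's quasi-likelihood test), short of the 0.5 cutoff. An exact permutation test of the difference in mean CPM gave p = 0.0286 (two-sided), the smallest that the 70 orderings of 4 against 4 allow, and was 1 of 10 such tests, 1 per member, left unadjusted. Nfkb2 overlaps the antisense gene Psd by 299 exon bases and the antisense transcript AC114539.1 by 531. Psd had 4.55 to 8.13 CPM and a log2 fold change of -0.49 (adjusted p = 0.305, edgeR), and whether the counting used strand is not given in the sources used here. Reads of Nfkb2 and of these partners may therefore not be told apart in the shared bases.

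Rela (chromosome 19 from 5637483 to 5648130), which encodes the main activating subunit p65, had 85.1, 70.7, 77.7 and 82.4 CPM in WT and 70.8, 72.5, 74.1 and 75.2 CPM in Gsdmd-/-. The groups overlapped, and the log2 fold change of -0.11 had a 95% interval from -0.29 to 0.07 (adjusted p = 0.636, edgeR). Nfkb1 (chromosome 3 from 135584655 to 135691547), the gene of p105 and p50, had 106.3, 85.5, 90.1 and 107.2 CPM in WT and 91.9, 99.0, 84.2 and 93.4 CPM in Gsdmd-/-. Its log2 fold change was -0.08 with an interval from -0.30 to 0.14 (adjusted p = 0.794, edgeR), so the interval of either gene reached no change of 0.5.

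Rel (chromosome 11 from 23736847 to 23770970), which encodes c-Rel, a subunit used by macrophages for Il12b induction, had 25.3 to 40.0 CPM in WT and 28.6 to 35.0 CPM in Gsdmd-/-, where all 4 values lay within the WT range. Its log2 fold change was 0.02 (95% interval -0.28 to 0.33). Relb (chromosome 7 from 19606217 to 19629438), the partner of p52, had 17.4, 12.5, 16.2 and 30.3 CPM in WT and 15.3, 13.4, 16.75 and 15.3 CPM in Gsdmd-/-. WT 4 alone stood high, at 30.3 CPM, and the remaining 7 libraries lay between 12.5 and 17.4 CPM. Relb had a log2 fold change of -0.33, and its interval, -0.85 to 0.19, leaves a change of 0.5 within reach, with -0.02 without WT 4 and -0.49 without WT 2 (adjusted p = 0.619, edgeR).

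**Figure D2:**
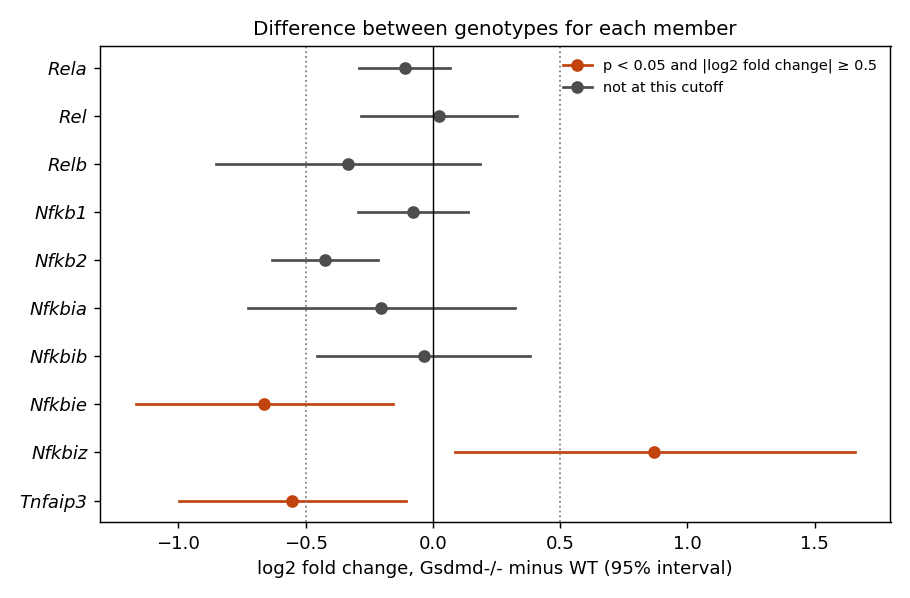
Log2 fold change (Gsdmd-/- minus WT, x axis) of each of the 10 members with its 95% interval from edgeR's quasi-likelihood fit, n = 4 libraries per group, with dotted lines at -0.5 and 0.5. Orange marks the 3 members at the study's cutoff, and the Nfkb2 interval, -0.63 to -0.21, is among the narrowest.

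Of the inhibitors, Nfkbie (ENSMUSG00000023947, chromosome 17 from 45555703 to 45563169), which encodes IκBε, a slowly resynthesised classical inhibitor, had the lowest fold change. It measured 43.7, 29.3, 31.1 and 58.4 CPM in WT and 24.5, 19.3, 32.1 and 26.9 CPM in Gsdmd-/-. The groups overlapped, since Gsdmd-/- 3 exceeded WT 2 and WT 3. The mean was 40.6 ± 13.5 CPM in WT and 25.7 ± 5.32 CPM in Gsdmd-/-, and the log2 fold change was -0.66 (SE 0.227, 95% interval -1.17 to -0.16, adjusted p = 0.295, edgeR). The exact permutation test gave p = 0.0857.

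Tnfaip3 (ENSMUSG00000019850, chromosome 10 from 19000910 to 19015657) encodes A20, a ubiquitin-editing enzyme that shuts off signalling upstream of IKK. Its level was 76.1, 42.6, 41.2 and 75.2 CPM in WT and 40.3, 39.2, 40.9 and 39.9 CPM in Gsdmd-/-. WT 1 and WT 4 were high, while WT 2 and WT 3 lay just above the Gsdmd-/- libraries, WT 3 by less than 1 CPM. The SD was 19.5 CPM in WT and 0.715 CPM in Gsdmd-/-, a ratio of 27.3, and the means were 58.8 and 40.1 CPM. The log2 fold change was -0.55 (SE 0.2005, 95% interval -0.997 to -0.11, adjusted p = 0.319, edgeR). The groups did not overlap, and the exact permutation test gave p = 0.0286, the smallest possible.

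Nfkbiz (ENSMUSG00000035356, chromosome 16 from 55811375 to 55838899) encodes IκBζ, a nuclear family member that acts mainly as a coactivator of secondary response genes rather than as a cytoplasmic inhibitor. It was scarce, with 33, 21, 11 and 32 counts in WT and 67, 41, 37 and 31 counts in Gsdmd-/-. Scaled to depth, these were 2.01, 1.28, 0.672 and 1.95 CPM in WT and 3.97, 2.42, 2.35 and 2.06 CPM in Gsdmd-/-. The highest WT value and the lowest Gsdmd-/- value nearly met, at 2.01 and 2.06 CPM. The log2 fold change was 0.87 (SE 0.354, 95% interval 0.09 to 1.66, adjusted p = 0.365, edgeR), and the exact permutation test gave p = 0.0286.

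Nfkbia and Nfkbib did not reach the cutoff. Nfkbia (chromosome 12 from 55489410 to 55492647), which encodes IκBα, the rapidly induced feedback inhibitor, had 38.3, 26.5, 29.8 and 64.0 CPM in WT and 33.6, 31.9, 36.7 and 35.8 CPM in Gsdmd-/-. WT 4 was the highest library, and WT 2 and WT 3 were below all 4 Gsdmd-/- libraries. Nfkbia had a log2 fold change of -0.20, with an interval from -0.73 to 0.32 (adjusted p = 0.780, edgeR). Nfkbib (chromosome 7 from 28758251 to 28767512), the gene of the more stable IκBβ, had 26.2, 17.8, 24.2 and 35.8 CPM in WT and 27.6, 23.2, 28.6 and 22.0 CPM in Gsdmd-/-. Its log2 fold change was -0.04, with an interval from -0.45 to 0.38 (adjusted p = 0.958, edgeR). Nfkbib shares 42 exon bases with antisense Sirt2, at 131 to 147 CPM, and 314 with Ccer2, which had 0 counts.

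To compare levels between genes, CPM was divided by exon length in kilobases (RPKM). The length merged the exons of all annotated transcripts, so it can exceed that of the transcripts present and lower the RPKM. Nfkb1 had the highest mean CPM of the 10 members in WT, 97.3, but a merged length of 12061 bases, against 3072 for Rela. The order of genes, and the shares and ratio given below, therefore depend on these lengths. On this scale Rela, at 25.7 ± 2.06 RPKM in WT and 23.8 ± 0.62 in Gsdmd-/-, and Nfkbia, at 24.6 ± 10.5 and 21.4 ± 1.34, led in both genotypes. In WT they were followed by Nfkbie (13.3 RPKM), Nfkbib (11.99), Nfkb2 (10.6), Tnfaip3 (8.14), Nfkb1 (8.07), Relb (4.92), Rel (4.25) and Nfkbiz (0.295). The SD ranges of several neighbours overlapped, as for Rela and Nfkbia, Nfkbie and Nfkbib, and Tnfaip3 and Nfkb1, so their order in WT is not settled. In Gsdmd-/- macrophages, Nfkbib (11.7 ± 1.49 RPKM) was above Nfkbie (8.44 ± 1.75) and Nfkb1 (7.64 ± 0.505) was above Tnfaip3 (5.55 ± 0.0989).

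Of the 3 classical cytoplasmic inhibitors, only Nfkbie had a share of their summed level that separated the groups. Nfkbie made up 28.6%, 28.0%, 25.6% and 25.4% of the summed RPKM of Nfkbia, Nfkbib and Nfkbie in WT, and 19.3%, 17.2%, 22.7% and 21.4% in Gsdmd-/-. The 2 groups did not overlap, and WT 2 and WT 3 lay among the other WT libraries on this measure. The mean share was 26.9% ± 1.62 in WT and 20.2% ± 2.41 in Gsdmd-/- (SD, n = 4). Nfkbia took 48.6% ± 2.79 and 51.7% ± 2.52, and Nfkbib 24.5% ± 2.54 and 28.2% ± 2.51, with overlapping groups. The share was examined after the levels were known, and no test was made of it.

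Within the summed RPKM of the 5 subunits, Nfkb2 made up 19.9% ± 2.01 in WT and 16.7% ± 1.07 in Gsdmd-/-, and WT 1 (17.1%) lay within the Gsdmd-/- range. The ratio of summed classical inhibitors to summed subunits was 0.916 ± 0.244 in WT and 0.873 ± 0.0837 in Gsdmd-/-, a difference smaller than the SD of either group. WT 4 had the highest ratio, 1.27.

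**Figure D3:**
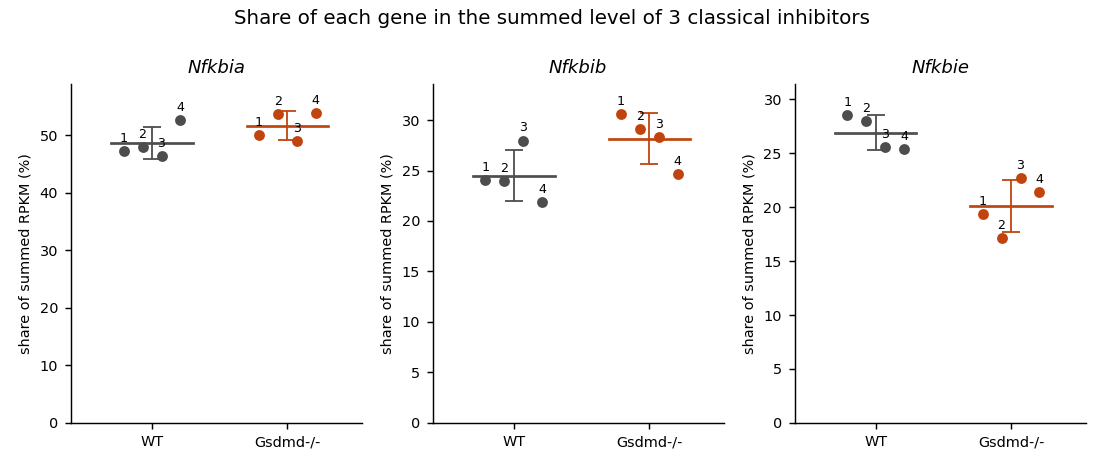
Share (%, y axis from 0) of Nfkbia, Nfkbib and Nfkbie in their summed RPKM in each WT (grey) and Gsdmd-/- (orange) library, with library numbers, the mean as a line and the SD as an error bar. The Nfkbie share is 25.4% to 28.6% in WT and 17.2% to 22.7% in Gsdmd-/-, without overlap.

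The WT libraries differed among themselves more than the Gsdmd-/- libraries for 9 of the 10 members, by SD of CPM, where 72.0% of all tested genes did so. WT 1 and WT 4 were the highest pair of WT libraries for 9 members (28.7% of all tested genes), and Nfkb2 was the exception. WT 4 was the highest of all 8 libraries for 6 members, namely Nfkb1, Nfkb2, Relb, Nfkbia, Nfkbib and Nfkbie. The SD ratio of WT over Gsdmd-/- was 27.3 for Tnfaip3, 7.86 for Nfkbia and 5.70 for Relb.

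The calls for the inhibitors therefore moved with the WT libraries that entered. WT 2 and WT 3 were seen to stand apart in these same data. They were also the lowest pair of WT libraries for Relb, Nfkbia, Nfkbie and Tnfaip3. A larger drop of these genes without WT 2 and WT 3 was thus built in, and is not separate evidence. With WT 2 and WT 3 left out, 4 members were lower at the cutoff (3.15% of all genes tested in that fit; 1.21% of them had an adjusted p under 0.05 in either direction), with log2 fold changes of -0.65 for Relb, -0.57 for Nfkbia, -0.99 for Nfkbie (adjusted p = 0.0383, edgeR) and -0.92 for Tnfaip3 (adjusted p = 0.00183, edgeR), while Nfkbiz, at 0.45, was no longer called. With WT 1 and WT 4 left out instead, a choice made after the data were seen, only Nfkbiz was called, at 1.46 (adjusted p = 0.023, edgeR). In that fit 6.64% of all tested genes were higher at the cutoff and 20.7% had an adjusted p under 0.05 in either direction. Tnfaip3 was then at -0.07, Nfkbie at -0.24, Relb at 0.07 and Nfkbia at 0.29. Over all alternatives the adjusted p ran from 0.0383 to 0.563 for Nfkbie, from 0.00183 to 0.606 for Tnfaip3 and from 0.023 to 0.689 for Nfkbiz.

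Single WT libraries had a like effect. Without WT 4, Nfkbie fell short at -0.43 and Tnfaip3 at -0.41, and without WT 1 Tnfaip3 was at -0.40. Tnfaip3 also fell short with limma voom and with the replicate block, at -0.49 in both. Nfkbiz lost its call without WT 2 (0.80), WT 3 (0.63) or Gsdmd-/- 1 (0.62). Nfkb2 kept its direction in all 17 alternative settings, as did Rela, Nfkbie, Nfkbiz and Tnfaip3. The log2 fold changes of Nfkb2 ran from -0.47 to -0.36 and never reached the 0.5 cutoff. They included -0.44 without WT 2 and WT 3 (adjusted p = 0.112, edgeR). Without WT 1 and WT 4, Nfkb2 was at -0.41 (adjusted p = 0.0121, edgeR, in the fit where 20.7% of all genes passed). Its adjusted p ran from 0.00606 with DESeq2 to 0.335.

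**Figure D4:**
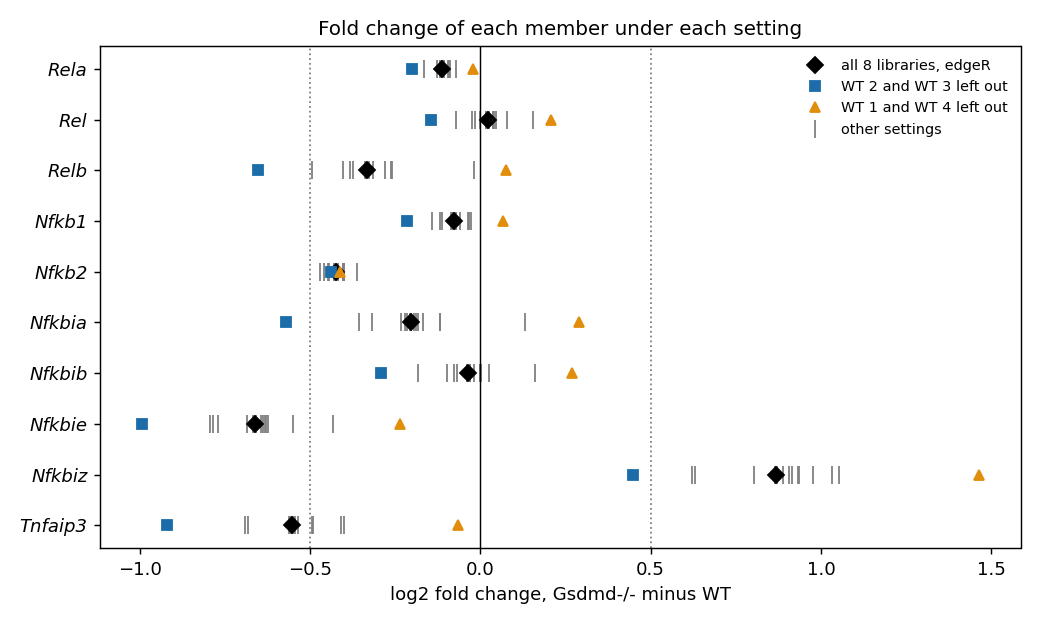
Log2 fold change (Gsdmd-/- minus WT, x axis) of each member with all 8 libraries (diamond), without WT 2 and WT 3 (square), without WT 1 and WT 4 (triangle) and under the other settings (ticks), with dotted lines at -0.5 and 0.5. The Nfkb2 values lie between -0.47 and -0.36, whereas Tnfaip3 runs from -0.92 to -0.07 and Nfkbia from -0.57 to 0.29.

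Of 90 other genes of the pathway, 83 were tested, of which 3 were lower (3.28% of all tested genes) and 1 higher (1.54%) at the cutoff. Their median was -0.09 on the log2 scale. The lower genes were Irf1, a transcription factor of interferon responses (39.9 ± 6.09 CPM in WT, 23.5 ± 2.88 in Gsdmd-/-, log2 fold change -0.77, adjusted p = 0.0468, edgeR), Traf2, an adaptor of TNF receptors (-0.58, adjusted p = 0.175), and Tlr2, the receptor for bacterial lipopeptides (-0.54, adjusted p = 0.241). Ier3, a stress-induced survival gene, was higher (27.6 ± 9.25 and 51.3 ± 4.63 CPM, 0.90, adjusted p = 0.116). Ier3 was at 0.54 without WT 2 and WT 3 and at 1.37 without WT 1 and WT 4, and its adjusted p was 0.0298 without WT 4 and 0.00353 with DESeq2. Irf1 stayed at the study's cutoff in all 17 alternative settings, but its adjusted p was 0.0546 with limma voom, 0.0695 without WT 2 and WT 3, and 0.0513 to 0.233 when any single library other than WT 1 was left out. Tlr2 left the cutoff without WT 4 (-0.37), Gsdmd-/- 2 (-0.499), Gsdmd-/- 4 (-0.48) or WT 1 and WT 4 together (-0.35), and Traf2 without Gsdmd-/- 2 (-0.46).

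The genes of the core IKK complex had fold changes near 0. Chuk, encoding IKKα, had a log2 fold change of 0.07, Ikbkb, encoding IKKβ, of -0.01 and Ikbkg, encoding the scaffold NEMO, of 0.06. Map3k14, encoding NIK, which drives processing of the Nfkb2 product, had 9.18 ± 1.69 CPM in WT and 6.91 ± 0.633 in Gsdmd-/- without overlap (-0.41, adjusted p = 0.344, edgeR), with -0.17 without WT 2 and WT 3 and -0.62, past the cutoff, without WT 1 and WT 4. Lower values without overlap were found for 9 of the 83 other pathway genes tested, Map3k14 among them, and for 4.12% of all tested genes. None of the 11 listed genes of kinases and their complex partners was at the cutoff, nor was any of 4 further genes of nuclear or atypical NF-κB regulators (Bcl3, Nfkbid, Nfkbil1 and Nkrf). Of these, Bcl3, a nuclear partner of p50 and p52, was at -0.17, and Nfkbid, encoding the nuclear protein IκBNS, at 0.09.

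The list of upstream signalling genes, made up of adaptors, receptor-proximal kinases and ubiquitin ligases, held 16, of which 1 (Traf2) was lower and 14 had a log2 fold change below 0 (median -0.20). Over all tested genes, 3.28% were lower at the cutoff and 51.5% were below 0. None of 18 genes of ubiquitin handling and IκB turnover was at the cutoff. Among 40 tested target genes, 2 were lower and 1 higher (median -0.20), beside 3.28% and 1.54% of all tested genes. Icam1, an adhesion molecule, had 153 ± 12.4 CPM in WT and 131 ± 5.57 in Gsdmd-/- (-0.23, adjusted p = 0.305, edgeR). Tnf, the gene of the cytokine itself, had 28.8 ± 15.4 and 44.5 ± 6.63 CPM (0.63, adjusted p = 0.489), and Il1b, encoding interleukin 1β, was scarce, at 1.43 ± 0.856 and 0.847 ± 0.403 CPM (-0.75, adjusted p = 0.571). Without WT 4, Tnf was at 0.98 and reached the cutoff, and Il1b was at -0.26. Without WT 2 and WT 3, Tnf was at 0.10 and Il1b was at -1.19, past the cutoff. Without WT 1 and WT 4, Tnf was at 1.45, past the cutoff, and Il1b at -0.11. Tnf also reached the cutoff with limma voom (0.77), DESeq2 (0.62), no filter (0.64) and the replicate block (0.76). Il6, Il12b, Cxcl1, Cxcl10, Nos2, Csf2 and Lcn2 were too low to be tested.

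**Figure D5:**
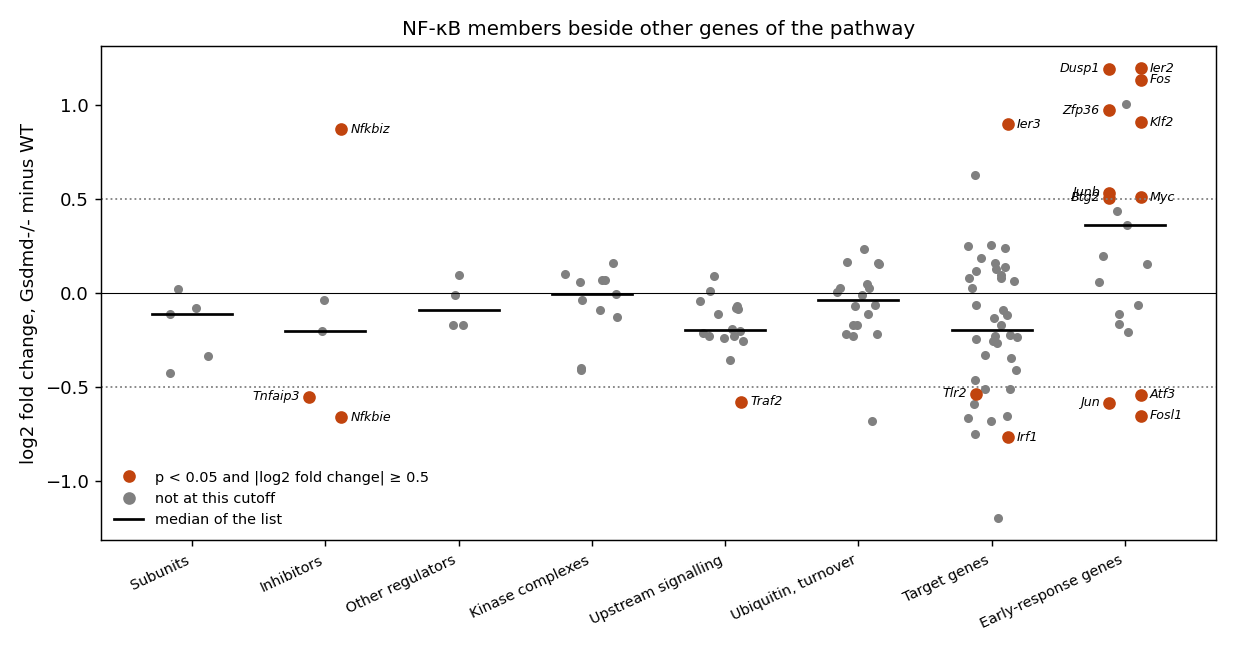
Log2 fold change (Gsdmd-/- minus WT, y axis) of the tested genes of each list, with the list's median as a line, dotted lines at -0.5 and 0.5, and genes at the study's cutoff named in orange. The medians are -0.11 for subunits, -0.20 for inhibitors and -0.20 for target genes, and 0.36 for early-response genes.

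Across the 8 libraries, the genes most like Tnfaip3 by Pearson r of log2 CPM were Rubcnl (0.991), Tlr1 (0.982) and Trib1 (0.982). For Nfkbie they were H2-K2 (0.989), H2-Ab1 (0.985) and Mrps27 (0.984), where H2-K2 belongs to a family of near-identical genes whose reads may be split between copies. Nfkbia was most like Prkrip1 (0.970), Dnajb5 (0.967) and Cxcl2 (0.963), Nfkb1 most like Irak3 (0.961), Sike1 (0.960) and Lmf2 (0.959), and Nfkbiz most like Nt5dc1 (0.977), Rabepk (0.966) and Exoc6 (0.946). These values describe likeness over 8 libraries that share the genotype groups and the split within WT.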

How the data were processed

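RNA was sequenced from 8 libraries, 4 per genotype. The authors deposited raw counts per gene, with mm10 in the submitters' processing notes. The aligner, counter, annotation and strand setting are not given in the sources used here. Groups were taken from the labels. Counts were tested for genotype with edgeR 4.0.16 in R 4.3.3 (quasi-likelihood test, TMM, filterByExpr, two-sided), with Benjamini-Hochberg adjustment over 12911 genes, and the code was checked on simulated data. The study's methods name limma and a figure legend edgeR; limma 3.58.1 (voom) and DESeq2 1.42.0 served as alternatives, beside other scalings, filters, a replicate block and left-out libraries. CPM used TMM-scaled totals. RPKM used merged exon lengths of GENCODE M21, a re-computation whose annotation may differ from the authors'. Exact permutation tests covered 70 orderings. Members, lists and rules were chosen with earlier results of these data known. Named genes were the members, Gsdmd, listed genes past either threshold, and Bcl3, Nfkbid, Chuk, Ikbkb, Ikbkg, Map3k14, Tnf, Icam1 and Il1b; likeness covered the 3 highest Pearson r for Nfkb1, Nfkbia, Tnfaip3 and members at the cutoff.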

Additional observations from a re-analysis of the deposited data

How the results depend on the processing

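The number of members at the study's cutoff was 3, against 1 without WT 1 and WT 4, 0 where the log2 fold change had to reach 1, 1 to 3 when 1 library was left out (1 without WT 4), and 2 to 4 under the other settings. Members with an adjusted p under 0.05 numbered 0, against 1 with DESeq2 and 2 both without WT 2 and WT 3 and without WT 1 and WT 4, where 0.349%, 2.26%, 1.21% and 20.7% of all tested genes passed, in that order. Other pathway genes at the cutoff numbered 4 (4.83% of all tested genes), against 9 with no filter on low counts (4.75%), 18 without WT 2 and WT 3 (6.19%), 15 without WT 1 and WT 4 (16.5%) and 3 to 9 when 1 library was left out (3.59% to 7.79%). The log2 fold change turned sign without WT 1 and WT 4 for Nfkb1 (0.0672), Relb (0.0748), Nfkbia (0.29) and Nfkbib (0.27), and without WT 2 and WT 3 for Rel (-0.15), Chuk (-0.0037) and Ikbkb (0.0068). It also turned for Nfkbib with limma voom (4.3e-05) and for Ikbkb with no filter (0.012). Leaving out 1 library gave -0.0714 to 0.155 for Rel, -0.49 to -0.02 for Relb, -0.36 to 0.13 for Nfkbia, -0.18 to 0.16 for Nfkbib and -0.0409 to 0.04999 for Ikbkb. The cause was not tested. With the replicate block, 2 members were at the cutoff, since Tnfaip3 was at -0.49, and 25 genes in all had an adjusted p under 0.05, against 45. Same-numbered libraries were not paired by the labels, and their deviations correlated at -0.20 to 0.18. The 4 libraries a group limit the precision of every value.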

Other observations

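Early-response genes, which respond within minutes to many stimuli and include the AP-1 family, were measured beside the NF-κB genes. Of 22 listed, 21 were tested, of which 8 were higher in Gsdmd-/- macrophages (1.54% of all tested genes) and 3 lower (3.28%), with a median log2 fold change of 0.36. Fos, an AP-1 subunit, had 52.0 ± 7.92 CPM in WT and 114 ± 15.8 in Gsdmd-/- (log2 fold change 1.13, adjusted p = 0.0059, edgeR). Dusp1, a MAP kinase phosphatase (1.19, adjusted p = 0.00177), Ier2 (1.19, adjusted p = 0.0146) and Zfp36, an mRNA decay factor (0.97, adjusted p = 0.00082), were also higher in the same test. Klf2 (0.91) and Myc (0.51) had an adjusted p of 0.0302 and 0.0362, and Junb (0.53) and Btg2 (0.51) reached the cutoff without passing the adjusted threshold. The lower genes were Jun (-0.58), Atf3 (-0.54) and Fosl1 (-0.65), with adjusted p of 0.134, 0.165 and 0.399 in edgeR's quasi-likelihood test. Jun and Atf3 were short of the cutoff without WT 2 and WT 3 (-0.29 and -0.32) and without WT 3 alone (-0.48 and -0.44), and Atf3 also without Gsdmd-/- 1 (-0.4975) or Gsdmd-/- 2 (-0.49). Of 17 alternatives, Fosl1 was short in 7, among them those without WT 3, WT 4 or Gsdmd-/- 1, 2 or 4. Btg2 was short in 5 (0.44 without WT 1, 0.496 without WT 4, 0.48 without Gsdmd-/- 1, 0.49 without Gsdmd-/- 2, 0.40 without WT 1 and WT 4). Myc was short in 4 (0.47 without WT 4, 0.49 without Gsdmd-/- 3 or 4, 0.44 without WT 1 and WT 4), and Junb in 3 (0.48 without WT 2 or Gsdmd-/- 3, 0.44 without WT 2 and WT 3). Fos, Dusp1 and Zfp36 kept an adjusted p under 0.05 in all 17 alternatives, whereas that of Ier2 reached 0.0822, of Klf2 0.153 and of Myc 0.164 when 1 library was left out, and under the replicate block Klf2 had 0.0578 and Myc 0.149. The list was chosen with earlier results of these data known.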
